A study of Mus musculus with 6 samples.

Results

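RNA of mouse CD4 T cells lacking YAP in the T cell lineage was compared with RNA of wild type (WT) cells in 3 populations at once, and the genes that differed in the same way in all of them were located in the genome. All 6 libraries of the series entered, 3 of the YAP conditional knockout (cKO) and 3 of WT, and each cKO library was paired with the WT library of its population. Of 24011 genes in the table, 11224 reached 1 FPKM (a level per transcript length and per mapped fragments) in 2 or more libraries and were tested. The cKO animals carried floxed Yap1 alleles with Cre expressed from the CD4 promoter, which acts in the thymus before the CD4 and CD8 lineages part. The labels give the strain C57BL/6 for both genotypes, with cells taken from lymph nodes and spleens. Backcrossing, littermate status, age, sex and the number of mice behind each library are not given in the sources used here.

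Naive CD4 T cells were sorted as CD62L+ CD25- and natural regulatory T cells (nTregs) as CD25 high. One pair of nTreg libraries was made from freshly sorted cells. The other pair was made after culture on anti-CD3 (coated at 2 µg/ml), with anti-CD28 in solution (2 µg/ml) and 100 U/ml of IL-2, for 24 h by the treatment text and for 48 h by the extraction text. There is 1 library per genotype and population.

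YAP is a transcriptional co-activator at the end of the Hippo kinase cascade. The kinases MST1 and MST2 (genes Stk4 and Stk3) activate LATS1 and LATS2, which phosphorylate YAP and keep it out of the nucleus, and nuclear YAP binds TEAD factors at their target genes. In regulatory T cells YAP has been studied as a support of activin and TGF-beta signalling and of suppressive function.

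Yap1 itself lies on chromosome 9, 7931999 to 8004638 (mm10, as are all positions below). Both genotypes were listed at 0 FPKM in naive cells and in fresh nTregs. In stimulated nTregs it was 0.169 FPKM in WT and 0.235 in cKO, so the deleted gene gave no check of the genotype labels. The cKO columns carry the abbreviation YKP in the table and were read as cKO by elimination, and every direction below rests on that reading. Sums of FPKM ran from 534274 to 968967 per library, and a fragment on a 1 kb transcript was worth an estimated 0.11 to 0.15 FPKM. T cell markers were high in all libraries (Cd3g between 264 and 587 FPKM), and Foxp3, the lineage factor of regulatory T cells, was between 45.9 and 57.8 FPKM in the nTregs and 2.98 and 3.30 in naive cells. Of the B cell markers, Ms4a1 and Pax5 did not exceed 0.165 FPKM, but Cd74 was 30.6 and 26.0 FPKM and Cd79b 12.0 and 11.2 in WT and cKO fresh nTregs. The B cell list summed to 48.6 and 40.6 FPKM there and to between 6.93 and 11.4 in the other libraries.

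In the model of population and genotype, 29 genes were higher in cKO (0.258% of the genes tested) and 13 were lower (0.116%), together 42 (0.374%). The test was limma on log2(FPKM + 1) with Benjamini-Hochberg adjustment and a threshold of 0.05. Its error is how far the genotype differences of the 3 populations lie from each other, so the p-values measure spread between libraries and not between mice. All 42 genes differed in the same direction in the 3 populations, against 36.2% of all genes tested, and the call itself favours such genes. Their standard errors ran from 0.0604 to 0.198 in log2, and the adjusted p-values from 1.41e-05 to 0.0483. The genes just outside the threshold were 9030025P20Rik (adjusted p = 0.0532), Pdk1 (0.0544) and Galnt11 (0.0544). In these bulk libraries, fewer cells of a type and less RNA per cell cannot be told apart.

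**Figure D1:**
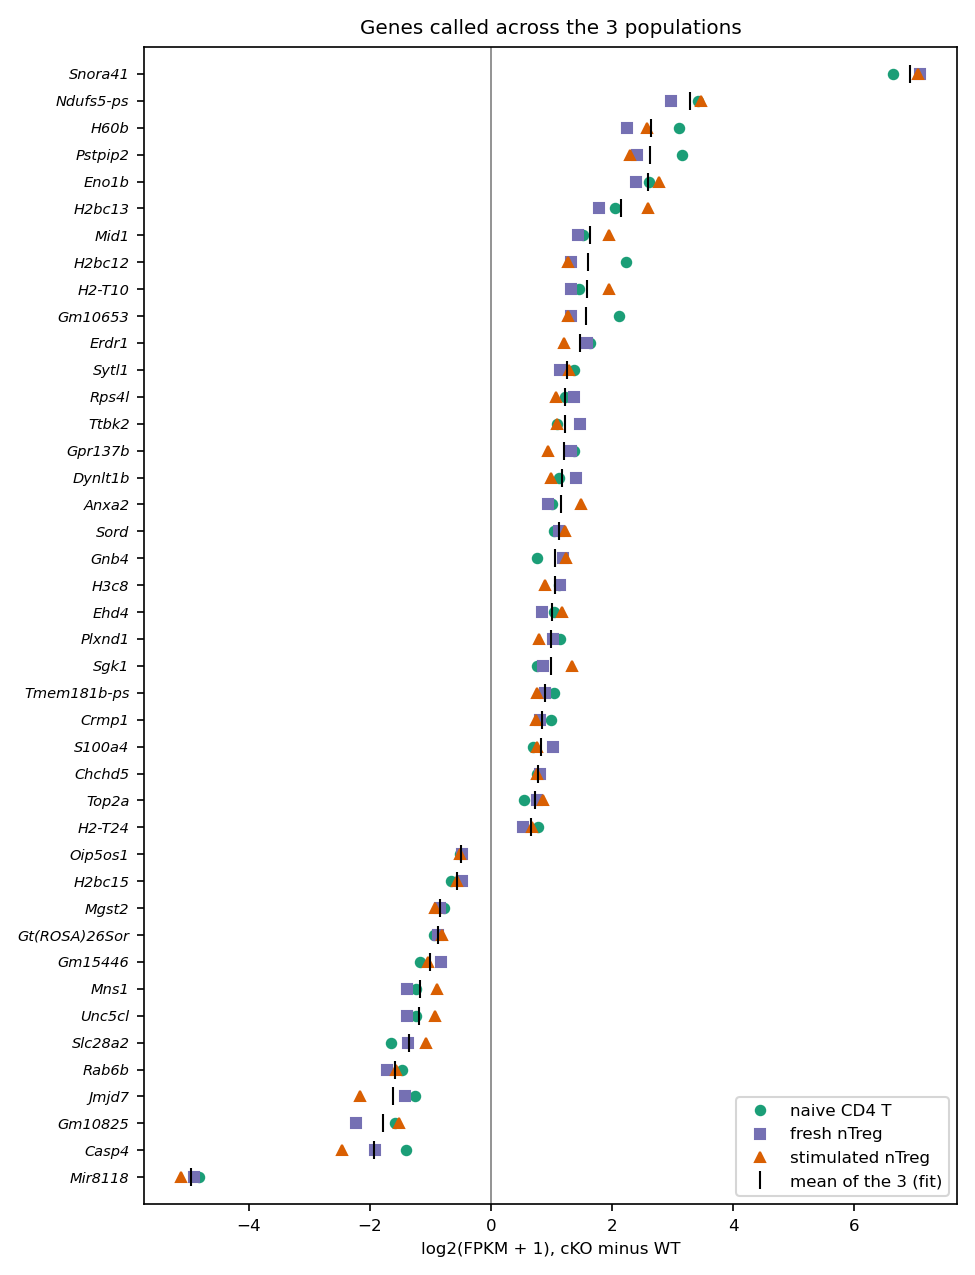
Difference in log2(FPKM + 1), cKO minus WT, of the 42 called genes in naive cells (circles), fresh nTregs (squares) and stimulated nTregs (triangles), with the fitted mean as a black bar. Each gene keeps its side of 0 in all 3 populations, and Snora41 (6.93) and Mir8118 (-4.95) lie far outside the others.

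The largest differences in both directions belonged to small RNAs that lie inside introns of other genes. Snora41 is a small nucleolar RNA of the H/ACA class, whose members guide the conversion of uridine to pseudouridine in ribosomal RNA. It lies on chromosome 1, 63179023 to 63179135, within Eef1b2, a subunit gene of a translation elongation factor, and overlaps none of the annotated exons of that host. Mir8118 is a microRNA gene on chromosome 4, 33438081 to 33438209, within Rngtt, the gene of the mRNA capping enzyme, and likewise overlaps no host exon. Both sequences are shown because these genes were listed at 0 throughout 1 genotype. The Snora41 transcript is from GENCODE (GRCm38, chr1:63179004-63179135, plus strand), with the ACA box at its 3′ end in capitals. The mature miRNA is from RefSeq (GRCm38.p6, chr4:33438153-33438174, plus strand), with the seed, bases 2 to 8, in capitals.
Snora41: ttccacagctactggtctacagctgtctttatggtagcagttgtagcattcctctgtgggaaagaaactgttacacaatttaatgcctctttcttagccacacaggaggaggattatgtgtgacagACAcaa
mmu-miR-8118: gACAAACAugacuaugcugaca

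Snora41 was listed at 0 FPKM in the WT libraries of naive cells, fresh nTregs and stimulated nTregs, and was 99.2, 135 and 132 FPKM in the matching cKO libraries. Mir8118 showed the opposite, with 27.4, 29.0 and 33.7 FPKM in WT and 0 in each cKO library. For both genes the genotypes did not overlap. The log2 differences were 6.93 for Snora41 (SE 0.114, adjusted p = 1.41e-05, limma) and -4.95 for Mir8118 (SE 0.107, adjusted p = 3.59e-05, limma), and since one side is listed at 0 their size depends on the pseudocount of 1 and is no fold. Neither host gene was called. Eef1b2 was 566, 369 and 382 FPKM in WT and 555, 375 and 429 in cKO, and Rngtt was 24.9, 23.5 and 21.4 in WT and 24.9, 23.2 and 23 in cKO. The library kit captures fragments of total RNA and is not made for RNAs as short as a mature miRNA, so the Mir8118 value counts fragments over the 129 nt precursor. A feature of this length gives a high FPKM from few fragments.

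Among genes of immune recognition and cell surface, H60b, H2-T10 and H2-T24 rose in cKO. H60b (chromosome 10, 22273474 to 22288849) encodes a ligand of NKG2D, the activating receptor of NK and cytotoxic T cells. It was 0.831, 2.82 and 1.21 FPKM in WT naive cells, fresh nTregs and stimulated nTregs, and 14.8, 17.2 and 12.1 in the matching cKO libraries. Every cKO library lay above every WT library, and the gene rose by 2.64 in log2 (SE 0.171, adjusted p = 0.00777, limma). The only other NKG2D ligand gene tested, Ulbp1, stood at -0.47 (adjusted p = 0.349, limma).

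H2-T10 (chromosome 17, 36115871 to 36121444, annotated as a transcribed pseudogene) belongs to the class Ib histocompatibility genes, some of which are recognised by gamma delta T cells. It was 31.8, 25.4 and 8.46 FPKM in WT and 89.5, 65.0 and 35.7 in cKO, and it rose by 1.58 (SE 0.127, adjusted p = 0.0140, limma). Most of this came from 1 of its 2 transcripts, which was 3.30, 2.10 and 0.479 FPKM in WT and 42.4, 35.2 and 18.7 in cKO, while the other was 28.5, 23.3 and 7.98 in WT and 47.1, 29.7 and 17.0 in cKO. H2-T24 (chromosome 17, 36003471 to 36020800), of the same class, rose by 0.67. It lies inside A930015D03Rik, a long non-coding RNA gene at 7.44, 7.69 and 5.79 FPKM in WT and 24.9, 14.0 and 11.6 in cKO. H2-T22 (chromosome 17, 36037128 to 36042742) missed the threshold, with 81.3, 81.4 and 48.1 FPKM in WT and 131, 112 and 67.5 in cKO (log2 difference 0.54, adjusted p = 0.0567, limma).

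H2-T10 and H2-T22 are near copies, with 41 differences over 1648 aligned bases (97.5% identity in GENCODE transcripts). Summed, the pair differed by 0.95, 0.73 and 0.86 in log2 in naive cells, fresh nTregs and stimulated nTregs, so the rise of H2-T10 was smaller in the sum but did not disappear. The stretch of 60 bases with the most differences in the coding part is shown to give the scale on which fragments must be told apart, with 7 differing bases in capitals.
H2-T22: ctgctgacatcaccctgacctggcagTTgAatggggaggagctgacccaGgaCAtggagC
H2-T10: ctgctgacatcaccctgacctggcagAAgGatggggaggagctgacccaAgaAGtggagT

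Of the 14 class I and class Ib genes tested, H2-T10 and H2-T24 were called, against 0.374% of all genes tested. By value 10 were higher in cKO (71.4%, against 53.8% of all genes tested), and the median difference was 0.14 against 0.01. With each library scaled to the same FPKM sum, 9 were higher (64.3%, against 39.9%). H2-T3 stood at 0.89 (adjusted p = 0.236).

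Next by size among the protein-coding genes that rose was Pstpip2, followed below by other genes whose products act at membranes or the cytoskeleton. Pstpip2 (chromosome 18, 77794550 to 77882879), an F-BAR protein that links membranes to actin, was 0.805, 1.89 and 5.96 FPKM in WT and 15.1, 14.4 and 33.1 in cKO. Every cKO library stood above every WT library, and the gene rose by 2.62 (SE 0.179, adjusted p = 0.00777, limma). Sytl1 (chromosome 4, 133253090 to 133263087), a synaptotagmin-like effector of Rab27, was 5.76, 13.2 and 11.1 FPKM in WT and 16.5, 30.4 and 28.4 in cKO. It rose by 1.27 (SE 0.0811, adjusted p = 0.00777, limma), and all cKO libraries were above all WT libraries. Mid1 (chromosome X, 169685199 to 169990798), a microtubule-bound ubiquitin ligase, was 2.40, 3.16 and 1.30 FPKM in WT and 8.72, 10.3 and 7.88 in cKO. It rose by 1.63 (SE 0.131, adjusted p = 0.0140, limma), and 1 of its 6 transcripts, at 0.677, 0.521 and 0.601 FPKM in WT and 5.80, 9.77 and 6.96 in cKO, held most of the difference.

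Smaller rises were those of Anxa2, S100a4, Ehd4, Dynlt1b and Gpr137b. Anxa2 (chromosome 9, 69453683 to 69491792), the calcium-dependent membrane protein annexin A2, was 5.71, 32.5 and 22.6 FPKM in WT and 12.6, 63.5 and 65.7 in cKO, a rise of 1.15. S100a4 (chromosome 3, 90603770 to 90606045), a small calcium-binding protein abundant in effector and memory T cells, was 7.54, 319 and 73.5 FPKM in WT and 12.8, 647 and 125 in cKO, a rise of 0.82. For both genes the naive libraries were the lowest in either genotype, so the genotypes overlapped across populations, and cKO was higher within each. Ehd4 (chromosome 2, 120089487 to 120154575), of endocytic recycling, rose by 1.02. Dynlt1b (chromosome 17, 6429530 to 6440500), a dynein light chain, rose by 1.18 and overlaps Tmem181b-ps (6439002 to 6450994), a pseudogene that rose by 0.90. Gpr137b (chromosome 13, 13357620 to 13393644), a lysosomal membrane protein, rose by 1.21 from 0.0461, 0.0739 and 0.191 FPKM in WT to 1.72, 1.68 and 1.29 in cKO.

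**Figure D2:**
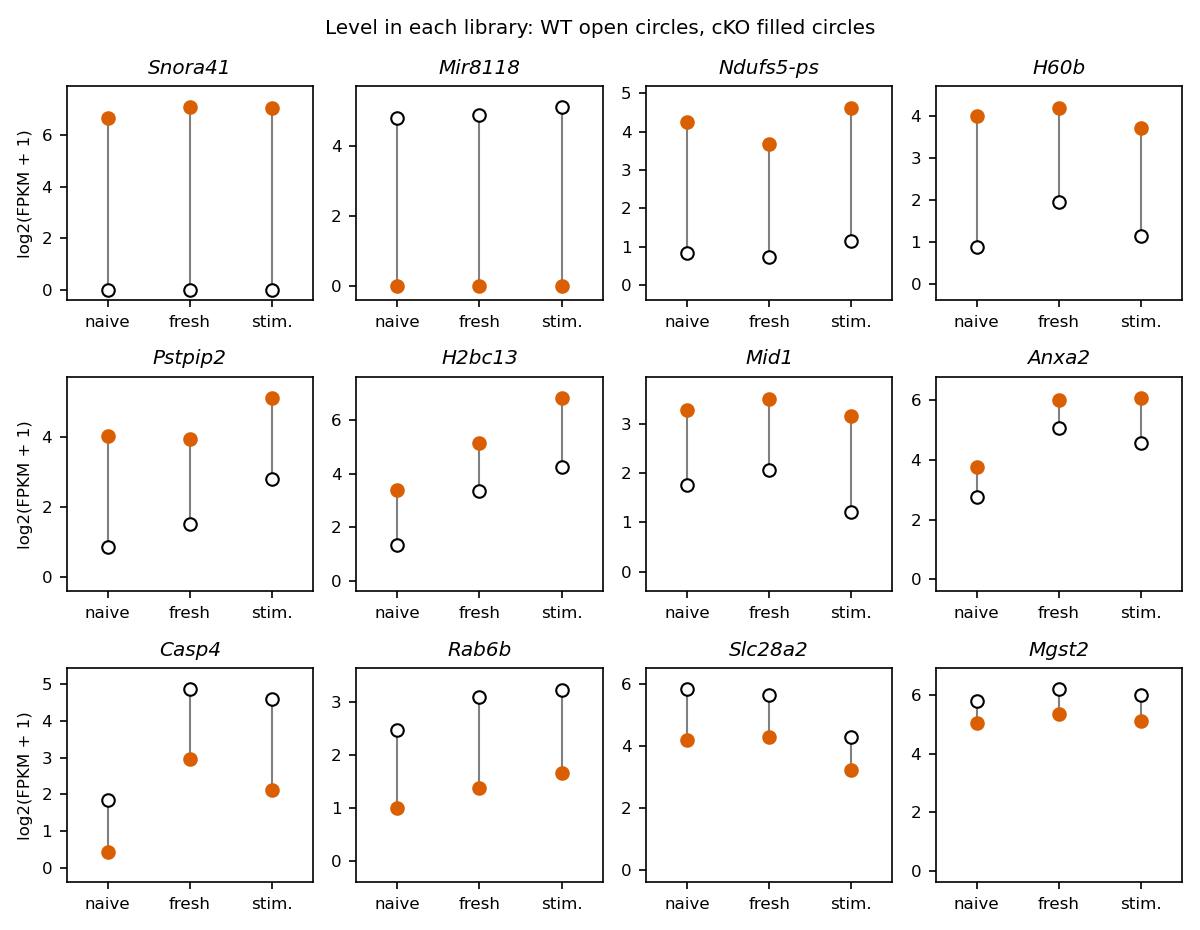
Level of 12 called genes as log2(FPKM + 1) in each library, with WT as open circles and cKO as filled circles joined by a line within each population. H60b and Pstpip2 are higher in all cKO than in all WT libraries, whereas Anxa2 in the cKO naive library (12.6 FPKM) lies below its WT nTreg libraries (32.5 and 22.6).

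Sgk1, Plxnd1, Crmp1, Gnb4, Ttbk2, Sord, Chchd5 and Erdr1 rose as well. Sgk1 (chromosome 10, 21882184 to 21999903), a kinase downstream of phosphoinositide signalling that is known to promote helper T cell responses, was 59.1, 32.4 and 30.6 FPKM in WT and 101, 59.8 and 78.9 in cKO, a rise of 0.99. Plxnd1 (chromosome 6, 115954811 to 115995339), a semaphorin receptor, rose by 0.99, and Crmp1 (chromosome 5, 37242058 to 37292163), a mediator of semaphorin signals in neurons, rose by 0.85. Gnb4 (chromosome 3, 32578587 to 32616673), a G protein beta subunit, rose by 1.06, and Ttbk2 (chromosome 2, 120732816 to 120850584), a kinase needed for cilium formation, rose by 1.22. For Ttbk2 this was the sum of 3 transcripts. The highest of them differed by 0.07, 1.62 and 0.96, and fitted alone it stood at 0.89 (adjusted p = 0.444, limma). Of metabolic genes, Sord (chromosome 2, 122234839 to 122265337), sorbitol dehydrogenase, rose by 1.13. Chchd5 (chromosome 2, 129129700 to 129134112), a mitochondrial protein gene, rose by 0.78. Erdr1 (chromosome X, 170010526 to 170018797, annotated as a transcribed pseudogene) was 40.5, 28.4 and 16.4 FPKM in WT and 127, 87.7 and 39.4 in cKO, and it rose by 1.48 (SE 0.0970, adjusted p = 0.00777, limma). Its lowest cKO library lay just below its highest WT library, while within each population cKO was higher.

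Of the replication-dependent histone genes, which are transcribed in S phase, 3 rose in cKO and 1 fell. H2bc13 (chromosome 13, 21715711 to 21716183), an H2B gene, was 1.5, 9.06 and 17.7 FPKM in WT and 9.37, 33.8 and 112 in cKO, and it rose by 2.14 (SE 0.153, adjusted p = 0.00914, limma). H2bc12 (chromosome 13, 22035821 to 22036320) was listed at 0 in WT naive cells and was 6.79 and 18.1 FPKM in the WT nTregs, against 3.70, 18.4 and 45.5 in cKO. It rose by 1.61 (SE 0.198, adjusted p = 0.0483, limma). H3c8 (chromosome 13, 23535418 to 23535909), an H3 gene, rose by 1.05. H2bc15 (chromosome 13, 21754076 to 21754553), close to H2bc13, went the other way, with 45.6, 54.3 and 89.2 FPKM in WT and 28.5, 38.6 and 60.2 in cKO, and it fell by 0.57 (SE 0.0654, adjusted p = 0.0433, limma). Among members that were not called, H4c9 was 8.98, 9.25 and 7.60 FPKM in WT and 20.1, 43.3 and 76.7 in cKO (2.12, adjusted p = 0.114), and H2bc22 stood at 1.40 (adjusted p = 0.403).

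Of 62 histone genes listed, 51 were tested, and 3 of these were called higher and 1 lower. Over all genes tested, 0.258% were called higher and 0.116% lower. By value 48 of the 51 were higher (94.1%, against 53.8% of all genes tested). The median difference was 0.18 (naive), 0.47 (fresh nTreg) and 0.93 (stimulated nTreg), against 0.00, 0.00 and 0.03 for all genes tested, and the difference between populations was not tested. With each library scaled to the same FPKM sum, the 3 histone medians were 0.18, 0.45 and 0.80, while that of all genes in stimulated nTregs moved from 0.03 to -0.10. The RNAs of most of these genes lack poly(A) tails and are seen here because the libraries hold total RNA. The H2B copies are so alike that their fragments may be divided wrongly. H2bc13 and H2bc15 differ at 7 of 381 coding bases (98.2% identity, GENCODE), and their first 60 coding bases are shown with the 3 differing bases in capitals.
H2bc13: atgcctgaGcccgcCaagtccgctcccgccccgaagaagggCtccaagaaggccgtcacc
H2bc15: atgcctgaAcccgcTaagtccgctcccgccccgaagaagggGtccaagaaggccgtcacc

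The sum of H2bc13 and H2bc15 differed by -0.31, 0.19 and 0.68 in naive cells, fresh nTregs and stimulated nTregs, so the opposite calls of these genes did not carry into their sum. When the called H2B genes were summed with their near copies, the difference was 0.50 (adjusted p = 0.333, limma). Other H2B genes, such as H2bc18, were not in that sum. The sum of H3c8 with its near copies gave 0.57 (adjusted p = 0.319, limma).

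Top2a (chromosome 11, 98992947 to 99024199), the topoisomerase of dividing cells, moved with the histone genes. It was 4.87, 10.8 and 57.3 FPKM in WT and 7.57, 19.0 and 105 in cKO, and it rose by 0.72 (SE 0.0859, adjusted p = 0.0433, limma). It was the only one of 21 proliferation genes to be called, against 0.374% of all genes tested. The list had medians of 0.08, 0.38 and 0.64 in naive cells, fresh nTregs and stimulated nTregs. By value 19 of 21 members were higher (90.5%, against 53.8% of all genes tested). With equal FPKM sums 17 were higher (81%, against 39.9%). Among the higher members were Ccnb1 at 0.73 (adjusted p = 0.206, limma), Cdc20 at 0.66 (adjusted p = 0.261) and Aurkb at 0.60 (adjusted p = 0.269). The part of cell cycle state in the histone values was not tested.

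Several of the called genes are copies of other genes. All 6 transcribed pseudogenes called were higher in cKO, out of 105 tested (5.71% called, against 0.374% of all genes). Ndufs5-ps (chromosome 16, 42955580 to 42956079) is a pseudogene of Ndufs5, a subunit of respiratory complex I, and lies within Zbtb20. It was 0.791, 0.647 and 1.23 FPKM in WT and 18.1, 11.9 and 23.7 in cKO, with all cKO libraries above all WT libraries, and it rose by 3.29 (SE 0.130, adjusted p = 0.000679, limma). Ndufs5 itself was 25.7, 16.3 and 16.2 FPKM in WT and 22.4, 4.37 and 33.0 in cKO, and the summed pair differed by 0.73 (adjusted p = 0.404, limma). The transcripts differ at only 2 of 319 aligned bases (99.4% identity, GENCODE), both within the stretch of 60 bases shown, in capitals.
Ndufs5: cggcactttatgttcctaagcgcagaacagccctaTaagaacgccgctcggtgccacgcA
Ndufs5-ps: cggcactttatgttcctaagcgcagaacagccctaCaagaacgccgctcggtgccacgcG

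Eno1b (chromosome 18, 48045335 to 48048379), a copy of the glycolytic enolase gene Eno1, was 3.66, 3.21 and 3.37 FPKM in WT and 27.4, 21.2 and 28.9 in cKO. It rose by 2.60 (SE 0.101, adjusted p = 0.000679, limma). Eno1 was between 129 and 171 FPKM in the 6 libraries, and the sum of both differed by 0.15 (adjusted p = 0.534, limma). Gm10653 (chromosome 9, 62841477 to 62862024), which shares sequence with the ribosomal protein gene Rps2, was 0.611, 0.885 and 2.53 FPKM in WT and 6.00, 3.74 and 7.53 in cKO. It rose by 1.57 (SE 0.188, adjusted p = 0.0433, limma), and the sum with Rps2 differed by -0.01. Rps4l (chromosome 6, 148354656 to 148355596), a ribosomal protein S4 copy, was 0.337, 1.77 and 2.10 FPKM in WT and 2.14, 6.18 and 5.54 in cKO, a rise of 1.23. Gpr137b and its copy Gpr137b-ps went in opposite directions, the latter from 1.92, 3.04 and 3.05 FPKM in WT to 0.989, 1.23 and 0.709 in cKO, and their sum differed by 0.32, -0.07 and -0.50.

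In all, 15 of the 42 called genes had a near copy, defined by 95% or more identity over at least 50% of the shorter transcript. By this rule a match need not be a duplicated gene. The only match of Jmjd7 was Gm28042, which overlaps it. That of Ttbk2 was its neighbour Cdan1 (chromosome 2, 120716154 to 120731517), with 100% identity over 86.8% of the shorter transcript. When the FPKM of near copies were summed before the fit, 24 genes were called and 24 of the 42 kept their call. Slc28a2, Ttbk2, Dynlt1b and Gm15446 were below the threshold in their sums, at -1.46 (adjusted p = 0.115), 0.61 (0.108), 0.68 (0.121) and -0.53 (0.150) in limma, while Jmjd7 and Tmem181b-ps were still called.

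**Figure D3:**
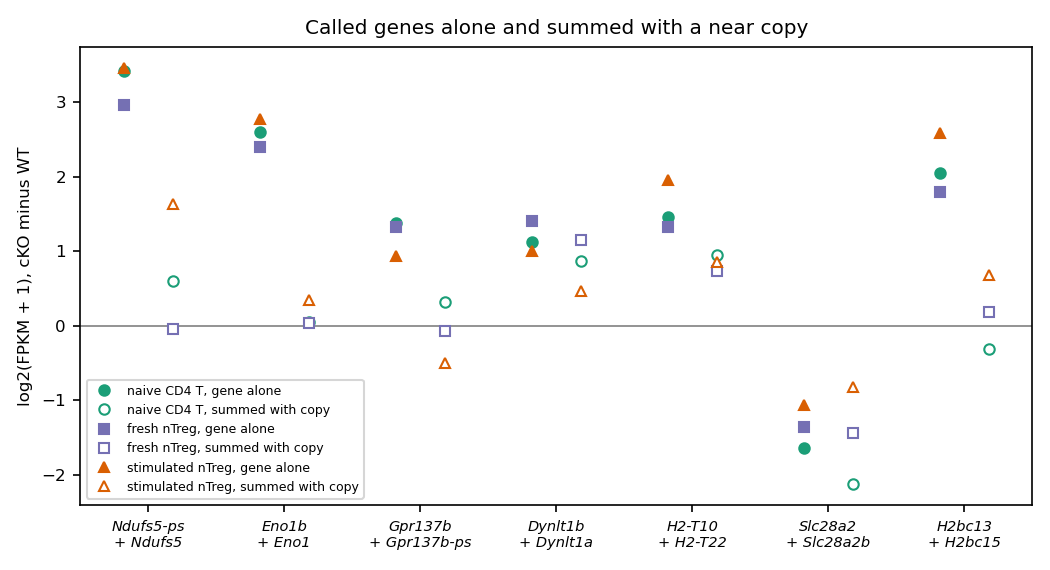
Difference in log2(FPKM + 1), cKO minus WT, of 7 called genes alone (filled symbols) and after summing with 1 near copy (open symbols), in naive cells (circles), fresh nTregs (squares) and stimulated nTregs (triangles). In the sum Eno1b lies between 0.04 and 0.35 and Gpr137b between -0.50 and 0.32, whereas those of H2-T10 (0.73 to 0.95) and Slc28a2 (-2.13 to -0.82) stay on their side of 0.

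The 13 genes that fell were led, after Mir8118, by the inflammatory caspase gene Casp4 (chromosome 9, 5308849 to 5336791), whose product, known in mice as caspase-11, responds to intracellular lipopolysaccharide. Casp4 was 2.57, 28.0 and 23.1 FPKM in WT naive cells, fresh nTregs and stimulated nTregs, and 0.348, 6.73 and 3.37 in cKO. Within each population cKO was lower, and the gene fell by 1.93 (SE 0.197, adjusted p = 0.0300, limma). Its neighbour Casp1, the caspase of the canonical inflammasome, was 4.25, 28.7 and 18 FPKM in WT and 0.736, 19.5 and 6.10 in cKO, but missed the threshold (-1.18, adjusted p = 0.124, limma). Of 8 genes of this list tested, Casp4 alone was called, against 0.374% of all genes tested. The adaptor Pycard stood at 0.28 (adjusted p = 0.416) and Card6 at -0.24 (adjusted p = 0.404).

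Slc28a2 (chromosome 2, 122426357 to 122461152), a sodium-dependent nucleoside transporter, was 56.6, 49.3 and 18.7 FPKM in WT and 17.4, 18.6 and 8.41 in cKO, and it fell by 1.36 (SE 0.117, adjusted p = 0.0184, limma). Its copy Slc28a2b was 48.8, 16.9 and 2.85 FPKM in WT and 5.95, 5.14 and 3.33 in cKO, so both members were lower in naive cells and fresh nTregs. Mgst2 (chromosome 3, 51636912 to 51682675), a microsomal glutathione transferase that can make leukotriene C4, was 55.1, 73.4 and 64.3 FPKM in WT and 31.9, 40.6 and 33.6 in cKO. All its WT libraries lay above all cKO libraries, and it fell by 0.84 (SE 0.0638, adjusted p = 0.0118, limma). Rab6b (chromosome 9, 103111667 to 103185276), a small GTPase of Golgi traffic, was 4.54, 7.52 and 8.33 FPKM in WT and 1.01, 1.59 and 2.15 in cKO, again without overlap, and it fell by 1.58 (SE 0.108, adjusted p = 0.00777, limma).

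Jmjd7 (chromosome 2, 120027483 to 120032604), a lysine hydroxylase of the Jumonji family, was 3.73, 6.80 and 8 FPKM in WT and 0.996, 1.91 and 1.01 in cKO, and it fell by 1.61. It overlaps Gm28042, a long non-coding RNA gene at no more than 2.32 FPKM in any library. Unc5cl (chromosome 17, 48454127 to 48539709), an activator of inflammatory signalling, was 5.68, 6.47 and 4.37 FPKM in WT and 1.85, 1.86 and 1.82 in cKO, and it fell by 1.18. Mns1 (chromosome 9, 72437821 to 72458581), a structural protein of cilia and flagella, was 4.04, 3.88 and 3.77 FPKM in WT and 1.14, 0.875 and 1.58 in cKO, and it fell by 1.17. For these 3 genes every cKO library was below every WT library. Adjusted p-values in limma were 0.0433 for Jmjd7, 0.0349 for Unc5cl and 0.0433 for Mns1.

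All 4 long non-coding RNAs called were lower in cKO, of 409 tested (0.978% called, against 0.374% of all genes). Gm10825 (chromosome 10, 22402813 to 22407470) was 4.85, 9.36 and 5.01 FPKM in WT and 0.951, 1.20 and 1.11 in cKO, and it fell by 1.78 (SE 0.167, adjusted p = 0.0250, limma). Gm15446 (chromosome 5, 109933563 to 109941710), a copy of the zinc finger gene Zfp932, was 3.75, 4 and 5.54 FPKM in WT and 1.11, 1.84 and 2.18 in cKO, and it fell by 1.01. Gt(ROSA)26Sor (chromosome 6, 113067428 to 113077244), the locus widely used to insert transgenes, was 26.5, 18.5 and 30.0 FPKM in WT and 13.3, 9.69 and 16.7 in cKO, and it fell by 0.87. Oip5os1 (chromosome 2, 119594296 to 119600746), the conserved RNA Cyrano that directs decay of miR-7, fell by 0.49. It had the smallest difference of the 42 genes. Fitted alone, the higher of its 2 transcripts stood at -0.25 (adjusted p = 0.519, limma).

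A change of at least 2-fold in FPKM + 1 in the same direction in all 3 populations was seen in 24 genes (0.214% of those tested), 17 higher and 7 lower in cKO, and 22 of them were among the called genes. The 2 others were H4c9 and Tanc1 (chromosome 2, 59611821 to 59846213), a scaffold protein gene. Tanc1 was 9.62, 3.34 and 1.98 FPKM in WT and 1.20, 0.484 and 0.345 in cKO (-1.66, adjusted p = 0.0610, limma). In a single population, the share of tested genes with a 2-fold or larger difference was 0.944% (naive), 0.891% (fresh nTreg) and 1.47% (stimulated nTreg), without a test. The correlation of the genotype difference across the 11224 genes, which are not independent replicates, was 0.27 between naive cells and fresh nTregs, 0.18 between naive cells and stimulated nTregs and 0.26 between fresh and stimulated nTregs (Pearson's r). The pairs of libraries behind these values share no sample. Across populations, 29 of the 42 called genes had WT and cKO libraries that did not overlap, as did 3.24% of all genes tested.

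The genes of the pathway that the deletion targets were not among those called. None of 18 Hippo pathway components tested passed, with a median of -0.03, against 0.374% called and a median of 0.01 over all genes tested. At that share a list of this size is likely to hold no called gene, here and for the lists that follow. Stk3, encoding MST2, had the largest difference, at 3.83, 7.31 and 6.45 FPKM in WT and 2.60, 5.17 and 4.34 in cKO (-0.44, adjusted p = 0.182, limma), and Lats2 stood at -0.24 (adjusted p = 0.313). None of 9 YAP-TEAD target genes tested was called (median -0.14), and Gadd45b, a stress-response gene, came closest, at 24.0, 117 and 8.46 FPKM in WT and 34.2, 149 and 12.5 in cKO (0.45, adjusted p = 0.0955, limma). The receptor kinase Axl stood at 0.34 (adjusted p = 0.427) and Asap1 at -0.24 (adjusted p = 0.414). Many listed targets are genes of adherent cells, and 12 of 21 did not reach the level for testing.

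Activin and TGF-beta signalling had no called gene among 15 (median -0.04), with the receptor genes Acvr2a at -0.27 (adjusted p = 0.404), Acvr1 at 0.24 (adjusted p = 0.546) and Tgfbr1 at 0.23 (adjusted p = 0.333) and the co-repressor gene Tgif1 at -0.16 (adjusted p = 0.435). None of 20 Treg identity genes was called (median 0.12, or 0.05 with equal FPKM sums). Klrg1, a receptor of terminally differentiated Tregs, was 0.109, 30.5 and 4.05 FPKM in WT and 0.552, 56.4 and 7.74 in cKO (0.71, adjusted p = 0.1, limma), Itgae stood at 0.46 (adjusted p = 0.206) and Il10 at 0.41 (adjusted p = 0.510). Of 16 naive T cell genes none was called (median -0.08), with Dapl1 at 0.52 (adjusted p = 0.189) and Il7r, the IL-7 receptor gene, at -0.37 (adjusted p = 0.336). Nor was any of 18 type I interferon response genes called. By value 15 of them were higher (83.3%, against 53.8% of all genes tested), with a median of 0.36. By population the median was 0.54 (naive), 0.05 (fresh nTreg) and 0.43 (stimulated nTreg), a difference that was not tested. The list was led by Isg15 at 1.08 (adjusted p = 0.162, limma) and Ly6a at 0.86 (adjusted p = 0.124). Of 15 host genes of small nucleolar RNAs none was called (median -0.01), and Snhg9 stood at -1.08 (adjusted p = 0.402).

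Seen by position, 23 of the 42 called genes lay in 8 groups in which called neighbours were within 5 Mb of each other. The number for 42 genes taken at random from those tested was not determined, so this count is only a description. On chromosome 10, Sgk1, H60b and Gm10825 spanned 0.525 Mb, and 2 of the 3 other tested genes in that span had an unadjusted p under 0.05, with the first pair higher and Gm10825 lower in cKO. On chromosome 2, Oip5os1, Jmjd7, Ehd4, Ttbk2, Sord and Slc28a2 spanned 2.87 Mb, with 3 of them higher and 3 lower, and 11 of the 44 other tested genes there (25.0%) had an unadjusted p under 0.05, against 12.0% of all genes tested. These spans were drawn around called genes, so their shares are a description. On chromosome 13, H2bc13, H2bc15, H2bc12 and H3c8 lay within 1.82 Mb of a histone cluster, where 13 of the 19 other tested genes had such a p.

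Chromosome 17 held 2 of the groups. Dynlt1b and Tmem181b-ps overlap within 0.0215 Mb, and H2-T24 and H2-T10 lie 0.118 Mb apart from end to end, in a span where 4 of the 6 other tested genes had an unadjusted p under 0.05. At the end of chromosome X, Mid1 and Erdr1 spanned 0.334 Mb, and the 1 other tested gene there had such a p. It is G530011O06Rik, within Mid1, at 3.34, 3.10 and 2.67 FPKM in WT and 7.54, 7.66 and 4.40 in cKO. This end of the chromosome is the pseudoautosomal region of the mouse, which Mid1 straddles. Anxa2 and Mns1 spanned 3 Mb of chromosome 9 (5 of 12 others with such a p), and Gt(ROSA)26Sor and Plxnd1 spanned 2.93 Mb of chromosome 6 (3 of 29 others). Groups formed with a limit of 1 Mb held 18 called genes, and those with 10 Mb held 26.

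**Figure D4:**
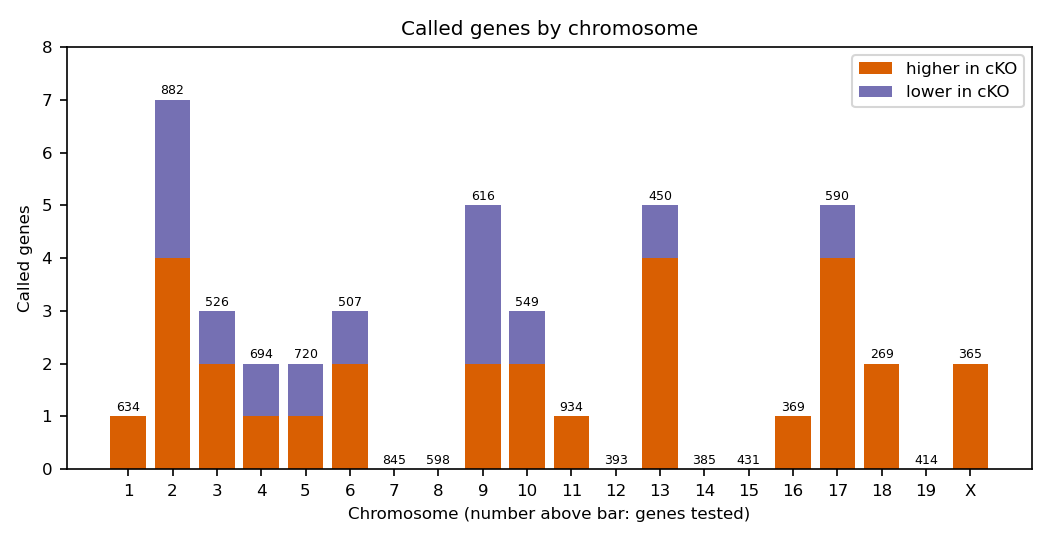
Number of called genes on each chromosome, higher in cKO (orange) and lower in cKO (violet), with the number of genes tested above each bar. Chromosome 2 holds 7 called genes of 882 tested, and chromosomes 9, 13 and 17 hold 5 each.

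Per chromosome, called genes made up 1.11% of those tested on chromosome 13, 0.847% on chromosome 17, 0.812% on chromosome 9 and 0.794% on chromosome 2, against 0.374% overall. The 5 called genes of chromosome 13 were Gpr137b, H2bc13, H2bc15, H2bc12 and H3c8. All of them lost their call when near copies were summed (adjusted p of 0.319 to 0.876, limma). None was called on chromosomes 7, 8, 12, 14, 15 and 19, with 385 to 845 genes tested on each, nor on chromosome Y, with 5. Unadjusted p-values under 0.05 were found for 19.2% of the genes tested on chromosome 17, 17.1% on chromosome 13, 16.2% on chromosome 9 and 5.99% on chromosome 1.

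Around Yap1 the tested genes are few. Within 5 Mb on either side, 12 genes were tested, of which Casp4 was called (8.33%) and 4 had an unadjusted p under 0.05 (33.3%). Within 10 Mb these were 1 of 34 (2.94%) and 7 (20.6%), and within 20 Mb 1 of 100 (1.00%) and 17 (17.0%). Over all genes tested, these shares were 0.374% and 12.0%. The windows are nested and Casp4 is the only called gene in each, so the called share cannot tell whether there is a gradient around Yap1. A gradient was not tested. On the side away from the chromosome start, no tested gene lies within 5 Mb. Casp4 lies 2.60 Mb and Casp1 2.62 Mb from Yap1, on the side of the chromosome start.

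The 4 tested genes nearest to Yap1 on that side were Birc3 (log2 difference 0.02), Birc2 (-0.02), Tmem123 (0.35) and Dcun1d5 (0.09), all within 0.71 Mb and none called. Birc2 and Birc3 encode inhibitors of apoptosis. Tmem123, a cell surface mucin-like gene, was 75.2, 95.6 and 88.5 FPKM in WT and 106, 133 and 94.4 in cKO (adjusted p = 0.261, limma). On the other side the nearest tested genes were 5.24 to 5.43 Mb away, namely Jrkl (-0.07), Ccdc82 (-0.06), Maml2 (-0.04) and Phxr4 (-0.30), and none was called. The other called genes of chromosome 9 lay 54.84 Mb (Gm10653) to 95.11 Mb (Rab6b) from Yap1.

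**Figure D5:**
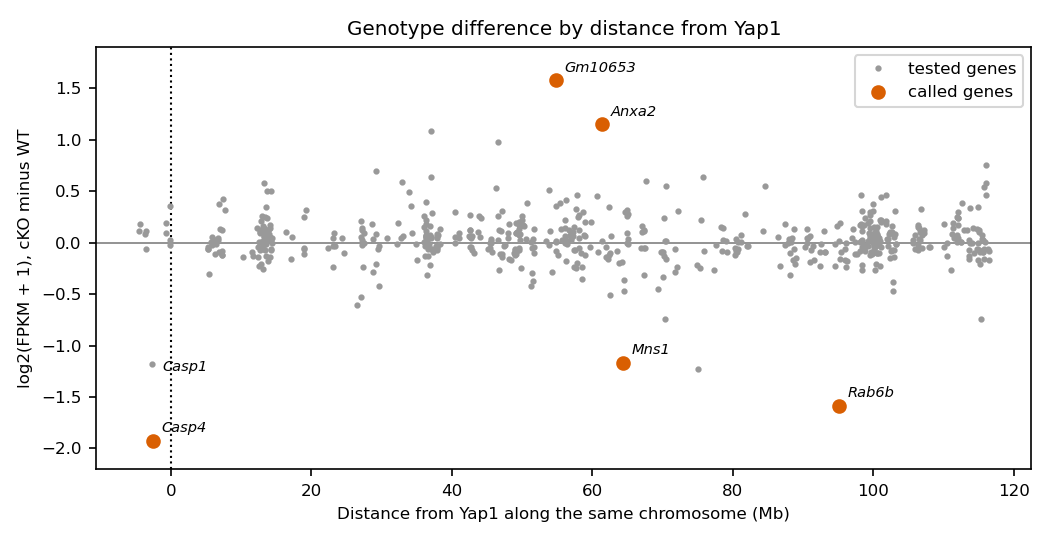
Difference in log2(FPKM + 1), cKO minus WT, of the tested genes of chromosome 9 against their distance from Yap1 in Mb, with called genes as large points. Casp4 (-1.93) and Casp1 (-1.18) stand side by side near Yap1, while the 4 tested genes nearest to Yap1 on that side lie between -0.02 (Birc2) and 0.35 (Tmem123).

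Because YAP acts through TEAD factors, the bases upstream of the called genes were searched for the TEAD core motif, GGAATG or its reverse complement CATTCC, within 250 bases before the RefSeq start (GRCm38.p6). A promoter was matched for 26 of the 42 called genes, and 5 of them (19.2%) held the motif, against 1070 of 8989 promoters of tested genes (11.9%). The 5 genes were Mid1, Plxnd1 and Sgk1, which rose, and Slc28a2 and Oip5os1, which fell. Stretches around the motif are shown for 3 of them, 5′ to 3′ on the gene's strand with the motif in capitals, to let the sites be located. They are from chrX:169685044-169685103 (plus strand), chr10:21993776-21993835 (plus strand) and chr2:122426185-122426241 (plus strand).
Mid1: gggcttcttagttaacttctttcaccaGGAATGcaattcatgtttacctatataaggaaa
Sgk1: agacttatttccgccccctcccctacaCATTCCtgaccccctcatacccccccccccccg
Slc28a2: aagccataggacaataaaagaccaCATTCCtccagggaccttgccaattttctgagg

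The 7 NK and cytotoxic markers tested had medians of -0.41, 0.05 and 0.42 in naive cells, fresh nTregs and stimulated nTregs, with summed levels of 35.6, 31.7 and 32.9 FPKM in WT and 23.2, 76.4 and 89.4 in cKO. By the fitted difference 2 of the 7, Gzmb (1.18) and Nkg7 (0.69), were higher in cKO and 5 were lower. None of the 7 was called, and Ncr1, which marks NK cells, did not exceed 0.401 FPKM. The 4 myeloid markers tested of 11 listed summed, with the others, to between 6.02 and 10.2 FPKM per library. Xist, the RNA of the inactive X chromosome in female cells, was 12.5, 30.0 and 21.1 FPKM in WT and 8.76, 3.21 and 3.43 in cKO (adjusted p = 0.199, limma), lower in cKO in all 3 populations. Of the 4 Y-linked genes tested, Eif2s3y (0.31), Uty (0.28) and Kdm5d (0.22) were higher in cKO in all 3 populations, with unadjusted p-values of 0.0271, 0.0327 and 0.0314 in limma, and none was called (adjusted p of 0.353 to 0.375). Ddx3y, the remaining one, stood at -0.18, 0.40 and 0.44 and was between 33.2 and 79.0 FPKM in all libraries. The part of these markers in the genotype differences was not tested.

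The number of called genes depended on the fresh nTreg libraries and on the filter. With population as block, a library left out also takes its partner out of the genotype difference. Both fits of a pair therefore gave the same differences (Casp4 at -2.19 without either naive library) and are not separate checks. Omission of the WT library of fresh nTregs gave 14 called genes and omission of its cKO partner gave 16, while 4 were called with no filter on low values. The 11 genes called whichever library was left out were Snora41, Mir8118, Ndufs5-ps, Eno1b, H60b, Pstpip2, H2bc13, Mid1, H2-T10, Erdr1 and Sytl1. Casp4, Jmjd7, Slc28a2, Mgst2, Gt(ROSA)26Sor, Anxa2, Dynlt1b, Rps4l, S100a4 and Sgk1 lost their calls only without either fresh nTreg library. Their adjusted p-values in limma ran up to 0.125. Gm10653, Gnb4, Gpr137b, H2bc12, Mns1, Sord, Tmem181b-ps, Top2a, Ttbk2 and Unc5cl were called in 2 of the 6 fits. None of these was called without either fresh nTreg library, and their adjusted p-values in limma ran up to 0.223. H3c8 was called in 3 fits, and Gm10825 and Rab6b in 5. Chchd5, Crmp1, Ehd4, Gm15446, H2-T24, H2bc15, Oip5os1 and Plxnd1 were not called in any of the 6 fits with a library left out, with adjusted p-values up to 0.271.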

How the data were processed

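Total RNA (322 ng) was depleted of ribosomal RNA and made into stranded libraries with 12 PCR cycles, per the labels' protocols. FastQC, TopHat, Cuffdiff, Cuffnorm and the build mm10 are named in the submitters' processing notes, without versions. The deposited values are FPKM per transcript, which the authors scaled across libraries with Cuffnorm. A count test does not suit them, and multi-mapping rules are not given in the sources used here. The 32547 transcripts were named with RefSeq (32101), then by the deposited symbol (397), and their FPKM were summed per gene. limma 3.58.1 (R 4.3.3) was fitted to log2(FPKM + 1) with population and genotype, an intensity trend, 2 residual and 4.02 prior degrees of freedom, over genes at 1 FPKM or more in 2 or more libraries. A fold on this scale understates changes of low genes. The fit was tested on simulated data. Near copies came from blastn 2.17.0 on GENCODE transcripts. Every called gene was named with its position, and each gene list by its called and up to 4 most different members. Members and lists were chosen with earlier results of these data known, and the H2-T22 and H2bc13 stretches after their values were seen. Alternatives changed the pseudocount, filter, scaling, model, gene summary and libraries.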

Additional observations from a re-analysis of the deposited data

Results flagged for a closer look

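The genotype difference of 2 marker lists took opposite signs in different populations, a difference between populations that was not tested, as there is 1 library per group. The NK and cytotoxic markers had a median log2 difference, cKO minus WT, of -0.41 in naive cells and 0.42 in stimulated nTregs. The granzyme gene Gzma was 4.96 FPKM in WT and 1.24 in cKO naive cells, and Nkg7, a protein of cytotoxic granules, was 19.9 FPKM in WT and 63.7 in cKO stimulated nTregs. Not every member changed sign. Gzmb, another granzyme gene, was higher in cKO in naive cells, fresh nTregs and stimulated nTregs (0.44, 2.02 and 1.1). It was 9.8 FPKM in WT and 42.9 in cKO fresh nTregs. Klrb1c was lower in cKO in each of these populations (-0.1, -0.26 and -0.17). The myeloid and dendritic markers had a median of -0.32 in naive cells and 0.24 in fresh nTregs, over 4 genes (Lyz2, Itgam, Cd68 and Tyrobp) that did not exceed 4.04 FPKM in any library.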

How the results depend on the processing

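Of the 42 genes called, all kept their call with equal FPKM sums, with median-centred pairs and with a robust prior. Without the intensity trend 29 genes were called, and 28 of the 42 kept their call. A pseudocount of 0.1 gave 30 called genes, and again 28 of the 42 kept their call. Casp4, S100a4, H2-T24 and Top2a were among those lost without the trend. Only 4 were called (3 higher, 1 lower) without a filter on low values, with 21218 genes tested, and 3 (2 higher, 1 lower) without the population block. The transcript with the highest mean alone gave 12 (9 and 3), summed near copies 24 (16 and 8) and deposited symbols alone 27 (19 and 8). Equal FPKM sums without small RNA gave 21 lower genes. Leaving out 1 library gave 14 to 54 called genes, 12 to 38 of them higher and 2 to 18 lower. In sums over near copies, Gm10653 (-0.01), Gpr137b (-0.08) and H2bc15 (0.50) changed sign. Genes at least 2-fold apart numbered 125 (naive), 112 (fresh nTreg) and 211 (stimulated nTreg). With a pseudocount of 0.1 they were 274, 275 and 494, and with 0.5 they were 178 in fresh and 332 in stimulated nTregs. At an FPKM minimum of 5 there were 72 in naive cells. Deposited symbols alone and the omission of small RNA were chosen after seeing the data. No paired analysis by replicate number was possible because the labels carry no replicate numbers, and the pairing used here is by population. The causes of these changes were not tested, and depth is known only as an estimate.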
